A study of Mus musculus with 16 samples.

Results

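White adipose tissue (WAT) libraries labelled as macrophage RNA were compared between mice that carried both interventions of the study and mice that carried neither. The combined group was Lyz2_cre+/_GPR132fl/fl (CKO) given the antagonist NOX_6_18, and the control group was GPR132fl/fl (fl/fl) given vehicle. Members were chosen by sample title, 2 libraries in each group, 4 of the 16 libraries of the series. All mice were C57BL/6 on a diet written as HFD, and both groups carried floxed Gpr132. The CKO mice also carried 1 Cre recombinase allele at Lyz2, a gene of macrophages, monocytes and neutrophils, so deletion is limited to such cells. Groups with 1 intervention, fl/fl given NOX_6_18 and CKO given vehicle, shared the same fit of 8 WAT libraries and are given side by side. Genotype and treatment both differ between the combined group and the controls, and their parts cannot be told apart in that comparison alone. The labels used here give no dose, duration or age, and leave unstated whether replicate libraries are separate animals. The p-values therefore reflect the spread of these libraries alone, and that spread may be technical.

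GPR132 is a G protein-coupled receptor of the proton-sensing family that also responds to oxidised fatty acids and is found on macrophages. In obese fat, macrophages take up lipid from adipocytes and can adopt a lipid-associated state marked by TREM2, GPNMB, lipid-binding proteins and a large lysosomal compartment. Lysosomal genes are switched on together by the transcription factors TFEB, TFE3 and MITF, which bind a short promoter element with the core TCACGTG.

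The libraries of the control group stood apart from all others. They held 48348395 and 55203349 counts, against 57634514 and 56924273 in the combined group. Genes with at least 1 count numbered 25039 and 25702 in the controls and 30393 to 31289 in the 6 libraries of the other 3 groups. The first principal component carried 72.2% of the variance and placed the controls at −226 and −220 and the other 6 libraries between 72.2 and 75.5. The second carried 6.31% and placed the controls far from each other, at 74.8 and −76.5, and the other 6 libraries between −4.69 and 11.8. Counts of mitochondrial genes made up 2.73% and 2.31% of the control libraries and 3.27% and 3.21% of the combined group. Every result against the controls includes this separation, and its part in them was not tested.

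Gpr132 itself, the targeted gene, was lower in the combined group without passing the test. It stood at 72.5 and 69.7 CPM (read counts scaled to a common library total) in the controls and at 56.5 and 59.1 CPM in the combined group. The groups did not overlap, with a log2 fold change of −0.30 ± 0.22 (SE, n = 2 per group) and an edgeR quasi-likelihood adjusted p of 0.335. The fit of these 4 libraries alone gave −0.30 with an adjusted p of 0.0384, and the value was −0.13 with library totals only (adjusted p = 0.699). In fl/fl given NOX_6_18, which lack Cre, Gpr132 was at 60.3 and 60.1 CPM, near the combined group. In CKO given vehicle it was at 35.6 and 64.6 CPM, 2 libraries far from each other. Levels below the controls were thus not limited to CKO libraries. Counts cover the whole protein-coding gene, which lies on the minus strand of chromosome 12 from 112850873 to 112868228 (GRCm38), and a loss of single exons would not show in them, so the genotype was not checked. Gpr4, another proton-sensing receptor, fell (27.0 and 24.3 CPM to 16.8 and 18.5 CPM, log2 fold change −0.54 ± 0.11), a call lost without replicate 1 of the combined group (−0.47, adjusted p = 0.0557). Gpr65 stood at 62.1 and 61.3 CPM in the controls and 58.5 and 52.9 CPM in the combined group and was not called, but it was lower after a correction for GC content and gene length (−0.45, adjusted p = 0.00149) and with libraries centred on the median of all genes (−0.29, adjusted p = 0.026).

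**Figure D1:**
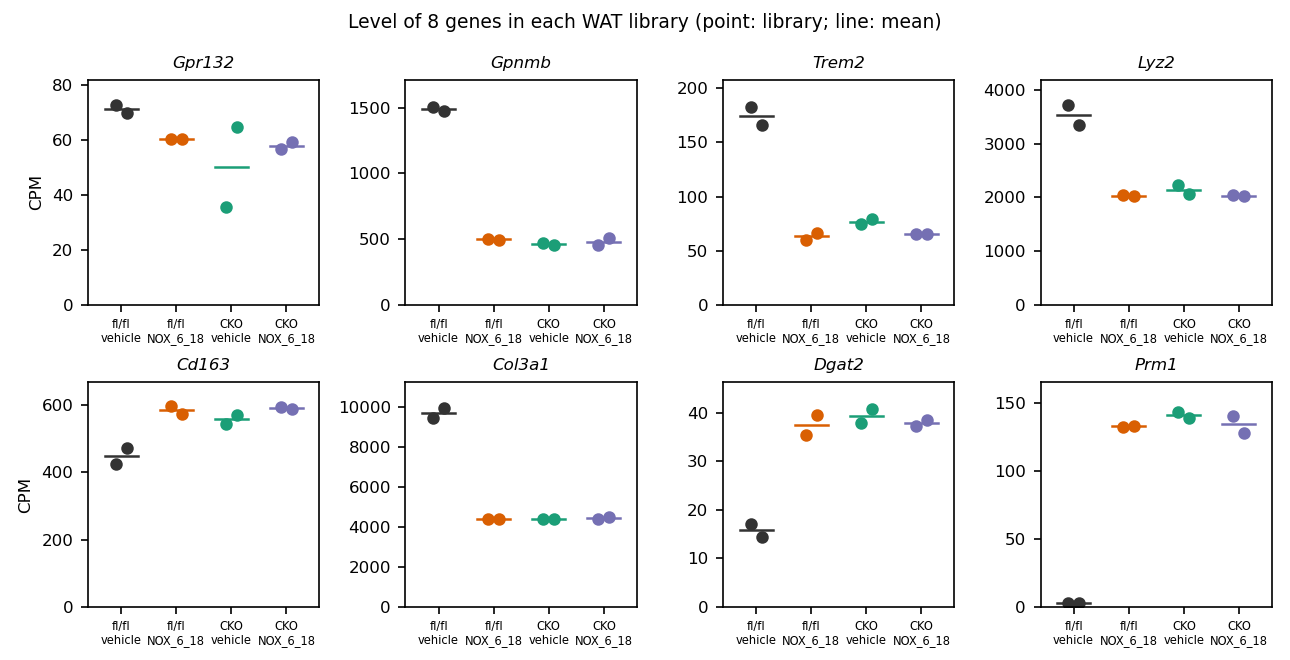
Levels of 8 genes in CPM (vertical axes, from 0) in the 4 WAT groups (horizontal axes), with a point per library and a line at the group mean. Gpnmb, Trem2, Lyz2 and Col3a1 are lower, and Cd163, Dgat2 and Prm1 higher, in the combined group than in both control libraries. For these genes the groups with 1 intervention lie near the combined group. For Gpr132 the libraries of CKO given vehicle lie far from each other, at 35.6 and 64.6 CPM.

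The label was checked against cell type markers. Lyz2, which encodes lysozyme, was at 3720 and 3353 CPM in the controls and at 2040 and 2022 CPM in the combined group, so macrophage RNA was present in all of these libraries. Adipoq, the adipocyte hormone adiponectin, lay between 5.74 and 12.4 CPM and Plin1, the adipocyte lipid droplet coat, between 9.49 and 12.4 CPM across the 8 WAT libraries. Adipoq was called higher in the combined group, a call lost, for example, after a correction for GC content and gene length (0.18, adjusted p = 0.475). Plin1 was called lower only with libraries centred on the median of all genes (−0.42, adjusted p = 0.0286). Matrix genes were abundant as well, and 31 of them summed to 48460 and 52120 CPM in the controls and 29520 and 29960 CPM in the combined group. A list of 23 pan-macrophage genes summed to 14230 and 13250 CPM and to 10100 and 10170 CPM. CPM is not corrected for gene length, so these sums are read between libraries only.

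In the comparison as a whole 9887 of 25871 fitted genes were called at an adjusted p under 0.05, which is 38.2%. Of these 6409 were higher in the combined group (24.8% of genes) and 3478 were lower (13.4%), with a median log2 fold change over all genes of 0.12. Counts called higher or lower in the gene lists below are read against these shares. A change of at least 2-fold was called higher for 5076 genes (19.6%) and lower for 269 (1.04%). The combined group lay above both controls for 10522 genes (40.7%) and below both for 7277 (28.1%). The share of calls that were higher was 64.8%, and it depended on the scaling. It was 82.6% with library totals only (7537 higher, 1585 lower), 75.1% after a correction for GC content and gene length (8558 and 2835), and 51.9% with libraries centred on the median of all genes (5846 and 5414). Under these settings the median over all genes shifted by 0.17, 0.16 and −0.13.

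**Figure D2:**
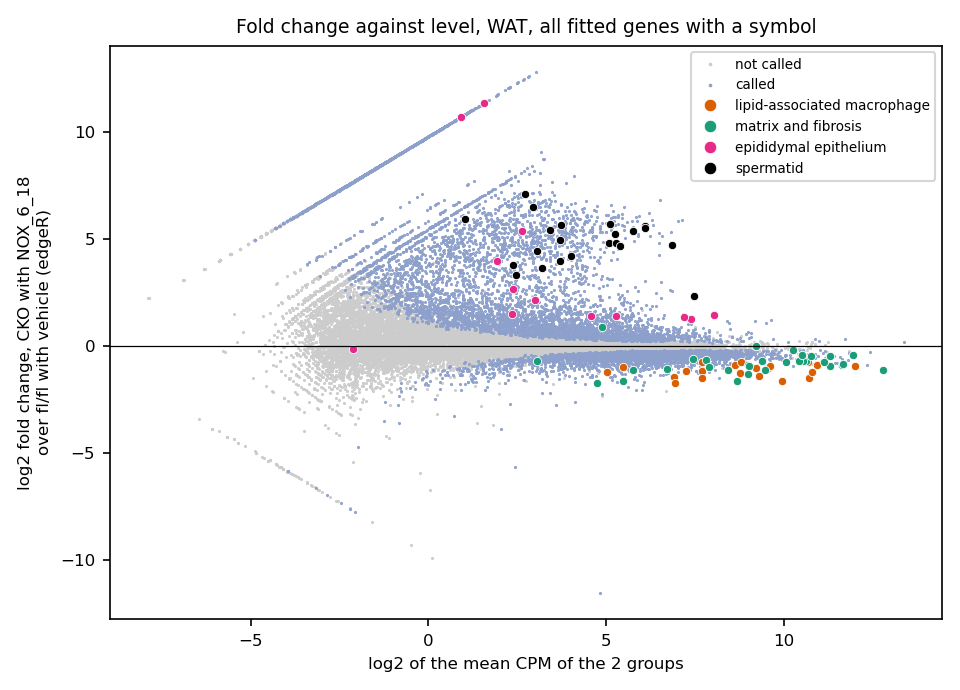
Log2 fold change of the combined group over the controls (vertical axis) against the log2 of the mean CPM of both groups (horizontal axis) for every fitted gene with a symbol. Lipid-associated macrophage genes and all but 1 of the called matrix genes lie below 0, spermatid genes and the 12 called epididymal genes lie above 0, and the straight upper line is made of genes with 0 counts in both controls.

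The lipid-associated macrophage genes fell as a block. All 22 listed members were fitted and 22 were lower, with log2 fold changes from −1.70 to −0.46 and a median of −1.10, where 13.4% of all genes were lower and the median of all genes was 0.12. Gpnmb, which encodes a membrane glycoprotein known from lipid-loaded phagocytes, went from 1505 and 1473 CPM to 455 and 506 CPM (log2 fold change −1.63 ± 0.06, adjusted p = 3.17e-07). Trem2, a lipid-sensing receptor that marks the state, went from 183 and 166 CPM to 65.5 and 65.3 CPM (−1.42 ± 0.08). For both genes each control library was more than 2-fold above each library of the combined group. Among surface genes 6 of 6 were lower, with a median of −1.03, and among genes of lipid handling 9 of 9, with a median of −1.14. Lgals3, the glycan-binding protein galectin-3, stood at 897 and 939 CPM in the controls and at 359 and 345 CPM in the combined group (−1.38 ± 0.06). Its levels in the groups with 1 intervention, 404 to 434 CPM, lay between those of the controls and the combined group, and neither difference from the combined group was called. Lpl, which releases fatty acids from lipoproteins, went from 2492 and 2456 CPM to 892 and 854 CPM (−1.5 ± 0.07). The lipid droplet coat gene Plin2 fell from 822 and 771 CPM to 394 and 401 CPM, and the fatty acid transporter Cd36 from 2606 and 2520 CPM to 1393 and 1371 CPM. Fabp4, a fatty acid carrier shared with adipocytes, fell less (−0.74 ± 0.07).

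Lysosomal members of that list fell in 7 of 7 cases (median −1.07). The lysosomal protease Ctsd, cathepsin D, went from 2484 and 2444 CPM to 1107 and 1041 CPM (log2 fold change −1.2 ± 0.05, adjusted p = 5.21e-07), and Ctsb, cathepsin B, from 5572 and 5271 CPM to 2794 and 2823 CPM (−0.95 ± 0.04). Lipa, the acid lipase that frees cholesterol from esters, was at 620 and 618 CPM and then at 267 and 254 CPM (−1.25 ± 0.05). Atp6v0d2, a proton pump subunit, was among the 12 largest falls of genes that are not predicted genes, from 200 and 178 CPM to 59.8 and 56.8 CPM (−1.70 ± 0.09). In these bulk samples fewer cells of a type and less RNA per cell cannot be told apart.

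A separate list of 32 general lysosomal genes moved the same way, with 30 lower, 0 higher and a median of −0.53. Hydrolases were lower in 16 of 16 cases (median −0.59) and membrane and proton pump genes in 12 of 13 (median −0.52). Psap, the precursor of the saposins that help break down sphingolipids, went from 6871 and 6630 CPM to 3660 and 3728 CPM (−0.87 ± 0.03). The proton pump subunit Atp6v1b2 fell by 1.03 ± 0.07 on the log2 scale, and Gusb, the lysosomal β-glucuronidase, fell by 0.88 ± 0.07. Of the regulators, Mitf went from 72.3 and 74.0 CPM to 51.4 and 42.3 CPM (−0.64 ± 0.11) and Tfe3 from 97.8 and 94.0 CPM to 71.2 and 77.4 CPM (−0.37 ± 0.08). Tfe3 was not called with library totals only (−0.20, adjusted p = 0.072), after the GC and length correction (−0.01, adjusted p = 0.953) or without replicate 1 of the combined group (adjusted p = 0.0574). Tfeb stood at 42.1 and 31.9 CPM in the controls and 19.6 and 26.4 CPM in the combined group and missed the threshold (−0.68 ± 0.24, adjusted p = 0.0568), while DESeq2 called it (adjusted p = 0.00991).

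Promoter windows of the fallen lysosomal genes are shown because they hold the element of these regulators. The 250 bases before each gene start (RefSeq, GRCm38.p6) were searched on both strands for TCACGTG, which includes the shorter motif CACGTG. It was found in 968 of 27025 genes (3.58%). Of 23 lysosomal genes with a window 7 held it (30.4%), of 16 lipid-associated genes 1 (6.25%, Ctsd), and of 21 matrix genes 0. It was also held by 3 of 16 spermatocyte genes (18.8%), a list that rose. A match is a description of these letters and not a measured binding site. The 4 called genes with a match and the smallest adjusted p are printed 5′ to 3′ on the gene's strand with matches in capitals. They lie at chr7:142387870-142387976 (Ctsd, minus strand), chr16:44139335-44139441 (Atp6v1a, minus strand), chrX:134601144-134601250 (Gla, minus strand) and chr8:13159095-13159160 (Lamp1, plus strand).
Ctsd: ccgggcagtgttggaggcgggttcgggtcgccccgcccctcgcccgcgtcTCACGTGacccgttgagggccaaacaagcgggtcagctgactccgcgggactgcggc
Atp6v1a: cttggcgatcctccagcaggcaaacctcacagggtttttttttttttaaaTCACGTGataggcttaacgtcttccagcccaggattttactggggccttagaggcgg
Gla: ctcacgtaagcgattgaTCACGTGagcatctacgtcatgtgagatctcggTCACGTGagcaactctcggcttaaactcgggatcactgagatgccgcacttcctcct
Lamp1: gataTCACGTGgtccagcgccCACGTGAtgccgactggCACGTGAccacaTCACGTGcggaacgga
Lamp1, a lysosomal membrane glycoprotein, holds 4 matches within these 66 bases and Gla, the α-galactosidase, 2 within 107. Gla went from 77.0 and 71.5 CPM to 42.1 and 42.4 CPM (−0.81 ± 0.08) and the proton pump subunit Atp6v1a from 313 and 329 CPM to 193 and 194 CPM (−0.73 ± 0.06). Lamp1 went from 1222 and 1150 CPM to 825 and 808 CPM (−0.54 ± 0.05).

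General macrophage markers mostly fell. Of 23 fitted members 14 were lower and 4 higher (median −0.45), where 13.4% of all genes were lower and 24.8% higher. Adgre1, which encodes F4/80, went from 629 and 608 CPM to 359 and 370 CPM (−0.76 ± 0.05), Cd68 from 695 and 612 CPM to 342 and 355 CPM (−0.91 ± 0.07), and the myeloid transcription factor Spi1 from 181 and 161 CPM to 85.9 and 93.8 CPM (−0.93 ± 0.08). Lyz2, the gene that drives Cre, fell by 0.80 ± 0.06 on the log2 scale. The 4 that rose were Cd163, Lyve1, Timd4 and Mertk, genes known from tissue-resident macrophages. Rises were no more frequent in this list than among all genes, and a shift between macrophage types was not tested. Cd163, a haemoglobin scavenger receptor, went from 426 and 473 CPM to 594 and 588 CPM (0.39 ± 0.06, adjusted p = 0.00152). Lyve1 went from 313 and 306 CPM to 362 and 376 CPM (0.25 ± 0.05). Timd4 went from 12.3 and 11.7 CPM to 17.1 and 15.4 CPM (0.43 ± 0.11), and Mertk from 86.1 and 99.2 CPM to 110 and 115 CPM (0.28 ± 0.09). With libraries centred on the median of all genes Lyve1 (0.12), Timd4 (0.30) and Mertk (0.14) were not called, nor was Timd4 after the GC and length correction (0.17). Mertk was also not called without control replicate 1 or either library of the combined group, and Timd4 not without control replicate 2 or replicate 1 of the combined group. Csf1r, the receptor for macrophage colony-stimulating factor, stood at 1304 and 1326 CPM and at 1012 and 1095 CPM (−0.32 ± 0.05), but it was not called with library totals only (−0.15, adjusted p = 0.0521), and after the GC and length correction it was 0.15 (adjusted p = 0.0219). Itgam, which encodes CD11b, did not differ (337 and 229 CPM against 347 and 214 CPM).

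Within a library the lipid-associated sum was 1.79 and 1.88 times the pan-macrophage sum in the controls and 1.23 and 1.22 times in the combined group. It was 1.24 to 1.33 times in the 4 libraries with 1 intervention, so no library of the other 3 groups reached the controls. This ratio does not depend on the scaling between libraries. The corresponding ratio for the lysosomal list was 1.08 and 1.11 in the controls and 0.924 and 0.928 in the combined group. For the matrix list it was 3.41 and 3.93 in the controls and 2.92 and 2.95 in the combined group. A lower ratio was thus not particular to the lipid-associated and lysosomal lists.

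Cholesterol and lipid mediator genes gave a mixed picture, where 13.4% of all genes were lower and 24.8% higher. Of 12 liver X receptor and efflux genes 6 were lower and 2 higher (median −0.16, and 0.00 or 0.04 with library totals only or the GC and length correction). Nceh1, which hydrolyses cholesterol esters, went from 179 and 182 CPM to 79.3 and 77.5 CPM (−1.2 ± 0.07), the sterol exporter Abcg1 from 139 and 146 CPM to 74.1 and 81.9 CPM, and the cholesterol acyltransferase Soat1 from 150 and 146 CPM to 87.1 and 87.2 CPM. Apoc1 moved the other way, from 1.54 and 1.46 CPM to 7.13 and 6.74 CPM (2.21 ± 0.17). In cholesterol synthesis and uptake 4 of 15 genes were lower and 2 higher, against 2 and 8 after the GC and length correction. The lower ones included Dhcr7, of the last step of cholesterol synthesis (−0.92 ± 0.17). The 2 that were higher included Fdft1, squalene synthase (1.51 ± 0.14), whose exons overlap those of Ctsb.
Of 15 enzymes of eicosanoids and oxidised linoleate 5 were lower and 4 higher, so the share of rises was near the 24.8% of all genes. Hpgds, the haematopoietic prostaglandin D synthase, went from 102 and 97.4 CPM to 43.7 and 51.4 CPM (−1.07 ± 0.09), and Tbxas1, thromboxane synthase, fell by 0.64 ± 0.08. Ptgds, the lipocalin-type prostaglandin D synthase, rose from 17.5 and 16.4 CPM to 66.9 and 69.9 CPM (2.02 ± 0.08). Alox15, a lipoxygenase that oxidises linoleate and arachidonate, rose from 24.9 and 20.4 CPM to 41.1 and 40.6 CPM (0.85 ± 0.11), and the cyclooxygenase Ptgs2 rose by 0.35 ± 0.06.

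Inflammatory cytokine genes were mostly not called. Of 16 inflammatory cytokine genes 4 were lower and 2 higher, where 13.4% of all genes were lower and 24.8% higher (median −0.10, but 0.06 with library totals only and 0.12 without control replicate 1). Nos2, inducible nitric oxide synthase, went from 22.5 and 22 CPM to 12.2 and 13.1 CPM (−0.81 ± 0.12), Tgfb1 fell by 0.61 ± 0.07 and Csf1 by 0.58 ± 0.11, but Csf1 was not called after the GC and length correction (−0.13, adjusted p = 0.373). Il1b was higher in the combined group, from 132 and 118 CPM to 158 and 155 CPM (0.32 ± 0.08), but not after the GC and length correction (−0.04, adjusted p = 0.633). Its call was also lost with libraries centred on the median of all genes and without either library of the combined group. Tnf, at 188 and 158 CPM in the controls and 188 and 193 CPM in the combined group, was not called. It was called higher with library totals only (0.31, adjusted p = 0.0264) and without control replicate 1 (0.27, adjusted p = 0.0337). Il10, the anti-inflammatory cytokine, went from 326 and 288 CPM to 154 and 145 CPM (−1.04 ± 0.08). Of 15 alternative activation genes, Il10 among them, 5 were lower and 4 higher (median −0.03, but 0.13 with library totals only and 0.06 after the GC and length correction). The chitinase-like Chil3 was at 5.16 and 4.17 CPM in the controls and 13.4 and 12.2 CPM in the combined group (1.46 ± 0.17), and arginase Arg1 rose by 0.86 ± 0.16.
Of all 30 chemokine and receptor genes 15 were lower and 2 higher (median −0.35, and 10 lower with −0.18 with library totals only or 21 lower with −0.61 after the GC and length correction). Chemokine ligands were lower in 14 of 23 cases and higher in 1 (median −0.37). Ccl8, a monocyte attractant, went from 158 and 132 CPM to 73.4 and 76.5 CPM (−0.96 ± 0.10), the eosinophil attractant Ccl11 from 171 and 161 CPM to 103 and 95.9 CPM, and Ccl9 from 1159 and 1046 CPM to 777 and 737 CPM. The single rise was Cxcl10, an interferon-induced T cell attractant, from 103 and 91.6 CPM to 187 and 174 CPM (0.89 ± 0.08). Ccl2, the main monocyte chemokine, stood at 283 and 249 CPM in the controls and 250 and 250 CPM in the combined group and was not called. It was called lower after the GC and length correction (−0.64, adjusted p = 2.28e-05) and with centred libraries (−0.23, adjusted p = 0.045). MHC class II genes were lower in 6 of 12 cases and higher in 0 (median −0.35, and 3 lower with −0.18 with library totals only), with H2-Aa from 2377 and 2107 CPM to 1440 and 1613 CPM (−0.55 ± 0.07) and H2-Eb1 at −0.48 ± 0.07.

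**Figure D3:**
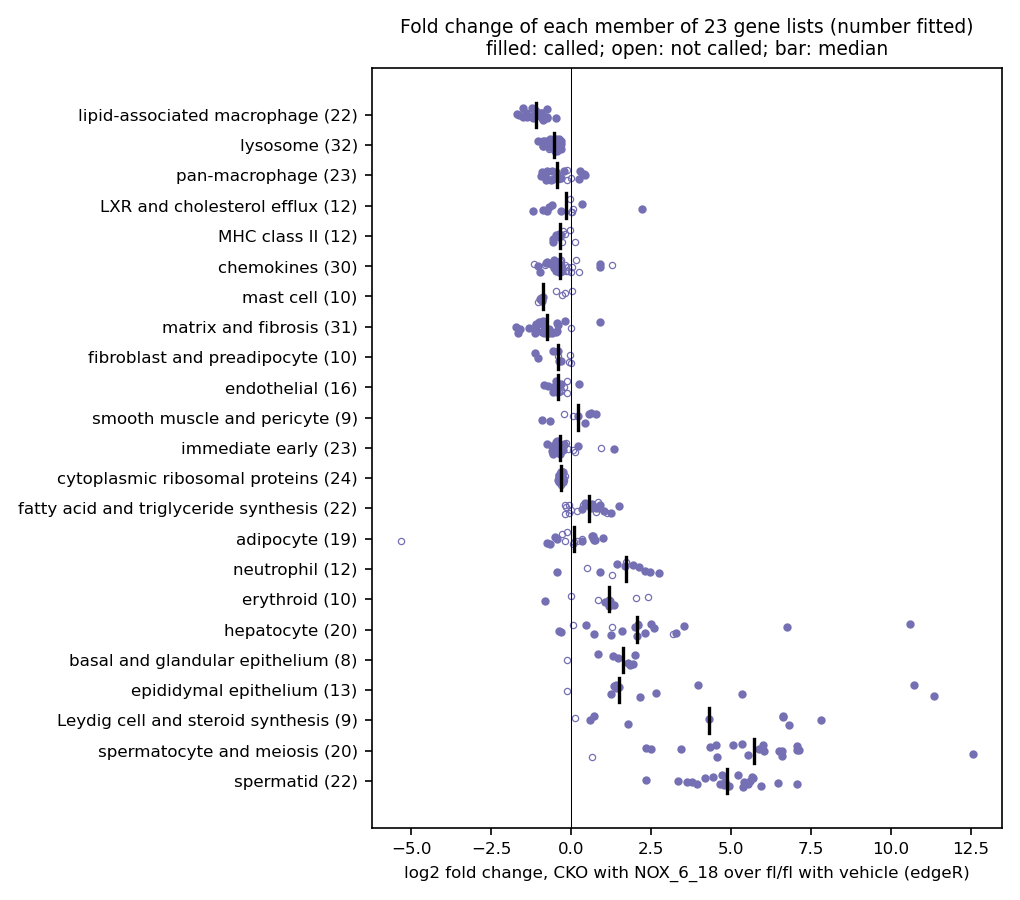
Log2 fold change of the combined group over the controls (horizontal axis) for each fitted member of 23 gene lists (rows, number fitted in brackets). Filled points are called genes, open points are not, and bars are list medians, which run from −1.10 for lipid-associated macrophage genes to 5.71 for spermatocyte genes.

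Most matrix genes fell. Of 31 members 29 were lower and 1 higher (median −0.76), and after the GC and length correction 22 were lower and 2 higher (median −0.36). Collagens were lower in 11 of 11 cases (median −0.76), other matrix genes in 10 of 11 (median −0.63), and proteases and their inhibitors in 8 of 9 (median −0.99). Col3a1, a fibrillar collagen, went from 9489 and 9963 CPM to 4428 and 4509 CPM (−1.12 ± 0.03, adjusted p = 1.15e-07). Col1a2 went from 4040 and 4293 CPM to 2213 and 2361 CPM, and the matricellular protein Postn from 970 and 958 CPM to 467 and 434 CPM (−1.10 ± 0.05). The gelatinase Mmp2 fell by 1.13 ± 0.05, the stromelysin Mmp3 from 43.0 and 40.4 CPM to 11.4 and 13.7 CPM (−1.73 ± 0.16), and Mmp12, the macrophage elastase, from 680 and 564 CPM to 189 and 217 CPM (−1.61 ± 0.10). Timp1, an inhibitor of such proteases, went from 76.3 and 58.9 CPM to 21.3 and 21.6 CPM (−1.65 ± 0.13). Mmp9, a gelatinase stored in neutrophils, was the 1 that rose, from 22.5 and 18.7 CPM to 38.9 and 37.7 CPM (0.90 ± 0.10).
Other stromal lists fell in part, and less so after the GC and length correction. Fibroblast and preadipocyte markers were lower in 6 of 10 cases and higher in 0 (median −0.40, with the correction 4 lower, 2 higher and −0.18), with Pdgfrb, a growth factor receptor of mural cells and fibroblasts, from 404 and 457 CPM to 206 and 217 CPM and Fap from 37.2 and 36.9 CPM to 16.1 and 18 CPM. Endothelial markers were lower in 9 of 16 and higher in 1 (median −0.40, with the correction 5 lower, 3 higher and −0.12), with the junction gene Cldn5 from 242 and 215 CPM to 135 and 140 CPM (−0.73 ± 0.08) and Cdh5, the endothelial cadherin, at −0.55 ± 0.06. Among 9 smooth muscle and pericyte genes 2 were lower and 5 higher. Rgs5, a pericyte gene, went from 1054 and 1020 CPM to 561 and 543 CPM (−0.91 ± 0.05), while the contractile genes Acta2 (0.56 ± 0.08) and Cnn1 (0.79 ± 0.10) rose. Mast cell genes were lower in 5 of 10 and higher in 0 (median −0.89), with the proteases Cpa3 from 122 and 111 CPM to 60.6 and 58.4 CPM, Tpsb2 from 148 and 139 CPM to 73.6 and 80.4 CPM, Mcpt4 at −0.92 ± 0.10 and Cma1 at −0.95 ± 0.11. The part of these cell types in the macrophage results was not tested.

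Early response and housekeeping lists fell by less. Immediate early genes were lower in 15 of 23 cases and higher in 2 (median −0.36), with Fos from 3993 and 3732 CPM to 2511 and 2548 CPM (−0.61 ± 0.04), Atf3 at −0.60 ± 0.05, Btg2 at −0.58 ± 0.05 and Klf6 at −0.55 ± 0.04. These genes are known to respond to tissue handling as well as to stimulation. Cytoplasmic ribosomal protein genes were lower in 20 of 24 (median −0.31), such as Rpl3 (−0.38 ± 0.06) and Rpl5 (−0.40 ± 0.07). The count was 2 with library totals only, 9 without control replicate 1, and 4 and 11 without replicates 1 and 2 of the combined group. Nuclear genes of oxidative phosphorylation were lower in 8 of 24 (median −0.23), such as Sdhb (−0.47 ± 0.10, adjusted p = 0.0587 without replicate 1 of the combined group) and Atp5c1 (−0.38 ± 0.07). That count was 2 with library totals only, 13 after the GC and length correction and 19 with centred libraries. It was 2 without control replicate 1, and 1 and 2 without replicates 1 and 2 of the combined group. Heat shock chaperones were higher in 6 of 13 and lower in 0 (median 0.25, and 4 lower with 0.11 with centred libraries), with Hspa4l from 32.9 and 39.8 CPM to 137 and 130 CPM (1.87 ± 0.10), Hspa1b at 0.85 ± 0.06 and Hsp90aa1 at 0.81 ± 0.08. In the B and plasma cell list 0 of 11 genes were called by edgeR. Of that list Xbp1, a secretory cell factor, stood at −0.19 ± 0.07 (adjusted p = 0.0546, called by limma-voom with an adjusted p of 0.0433), and Cd79b, a B cell receptor subunit, at −0.70 ± 0.27 (adjusted p = 0.0694). Cd79b was called lower after the GC and length correction (−1.02, adjusted p = 0.0142) and with centred libraries (−0.84, adjusted p = 0.0329), and Xbp1 with centred libraries (−0.33).

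Genes of fat synthesis were higher. Of 22 fitted members 11 were higher and 0 lower (median 0.56), against 24.8% of all genes higher. Dgat2, the last enzyme of triglyceride synthesis, went from 17.1 and 14.5 CPM to 37.2 and 38.5 CPM (1.26 ± 0.11, adjusted p = 5.64e-05). Fads2, a fatty acid desaturase, went from 56.4 and 60.2 CPM to 105 and 110.0 CPM (0.88 ± 0.07), Lpin1, a phosphatidate phosphatase, from 45.0 and 53.3 CPM to 92.6 and 89.8 CPM (0.89 ± 0.10), and the elongase Elovl6 rose by 0.78 ± 0.09. The libraries of the 2 groups did not overlap for any of these 4, which were the members with the smallest adjusted p. Over the list of 22 the combined group lay above both controls for 14 genes and below both for 3. The shares over all genes were 40.7% and 28.1%. Adipocyte genes did not move together, with 7 of 19 higher and 4 lower (median 0.09, but −0.05 with libraries centred on the median of all genes). Cfd, which encodes adipsin, rose from 12.6 and 12.6 CPM to 21.6 and 19.7 CPM (0.71 ± 0.11) and Plin4 by 0.64 ± 0.10, while Pparg, the adipogenic transcription factor, fell from 61.1 and 56.9 CPM to 42.8 and 40.6 CPM (−0.50 ± 0.10).

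Transcripts of the male reproductive tract and of other tissues rose the most. All 22 spermatid genes were higher (median 4.89), 7 of them of sperm chromatin (median 5.53) and 15 of the flagellum and acrosome (median 4.66). Prm1, a protamine that packs sperm DNA, went from 2.99 and 2.60 CPM to 140 and 128 CPM (5.59 ± 0.10, adjusted p = 1.81e-08). Prm2 went from 9.74 and 7.06 CPM to 222 and 224 CPM, Tnp2, a transition protein, from 2.76 and 3.03 CPM to 128 and 141 CPM, and Akap4, a scaffold of the sperm tail, from 2.33 and 2.73 CPM to 107 and 106 CPM. Gapdhs, the sperm form of a glycolytic enzyme, rose by 4.79 ± 0.10. Of 20 spermatocyte and meiosis genes 19 were higher (median 5.71), the exception being Meiob (1.2 and 1.12 CPM against 2.34 and 1.28 CPM). Ldhc, the germ cell lactate dehydrogenase, went from 4.80 and 4.48 CPM to 271 and 281 CPM (5.89 ± 0.08, adjusted p = 1.36e-08), Sycp2, of the synaptonemal complex, from 1.61 and 1.5 CPM to 64.3 and 60.3 CPM, and Ddx4, a germ cell helicase, from 1.27 and 1.06 CPM to 73.5 and 76.3 CPM. Spermatogonial genes were higher in 5 of 8 (median 3.68, or 1.97 when each gene at 0 counts takes its lower bound), such as Dmrtb1 (5.97 ± 0.16) and Zbtb16 (1.38 ± 0.13).

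Somatic testis and epididymal genes rose with them. Leydig cell and steroid synthesis genes were higher in 8 of 9 (median 4.32). Insl3, the hormone of these cells, went from 2.06 and 1.2 CPM to 171 and 191 CPM (6.81 ± 0.21), Cyp17a1, of androgen synthesis, from 1.22 and 1.32 CPM to 26.1 and 24.7 CPM (4.32 ± 0.12), and Cyp11a1 rose by 1.79 ± 0.14. Hsd3b6 was at 0 and 0.0787 CPM and then at 10.5 and 9.65 CPM. Star, which carries cholesterol into mitochondria, moved less (16 and 16 CPM to 23.7 and 24.6 CPM, 0.59 ± 0.09). Sertoli cell genes were higher in 6 of 12 (median 0.69), with the receptor gene Amhr2 at 3.84 ± 0.22 and Inha at 1.56 ± 0.19, while Amh, their defining hormone, stayed under 0.5 CPM in these 4 libraries and was not called (0.08 ± 1.00). Epididymal epithelium genes were higher in 12 of 13 (median 1.5), with Crisp1 from 156 and 131 CPM to 386 and 387 CPM (1.43 ± 0.08) and Adam7 from 97.5 and 102 CPM to 236 and 238 CPM. Lcn9 had 0 counts in both controls and 6.16 and 5.80 CPM in the combined group, which is at least 189-fold higher against a floor of 3 counts over the control group. Basal and glandular epithelium genes were higher in 7 of 8 (median 1.62), with the keratin Krt5 from 17 and 18.9 CPM to 68.4 and 74.3 CPM and the epithelial factor Trp63 at 1.94 ± 0.09.

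The summed level of the spermatid list was 99.0 and 93.0 CPM in the controls, 1477 and 1472 CPM in the combined group and between 1431 and 1595 CPM over the 6 libraries of the other 3 groups. Epididymal genes summed to 391 and 347 CPM in the controls, 981 and 989 CPM in the combined group, and up to 1076 CPM elsewhere. The controls therefore held epididymal transcripts at a lower level and spermatid transcripts at a much lower one, with a ratio of the spermatid to the epididymal sum of 0.253 and 0.268 against 1.51 and 1.49. Defining spermatid genes were not at 0 in the controls. These lists moved in the same libraries as the macrophage and matrix lists, and their part in those results was not tested.

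**Figure D4:**
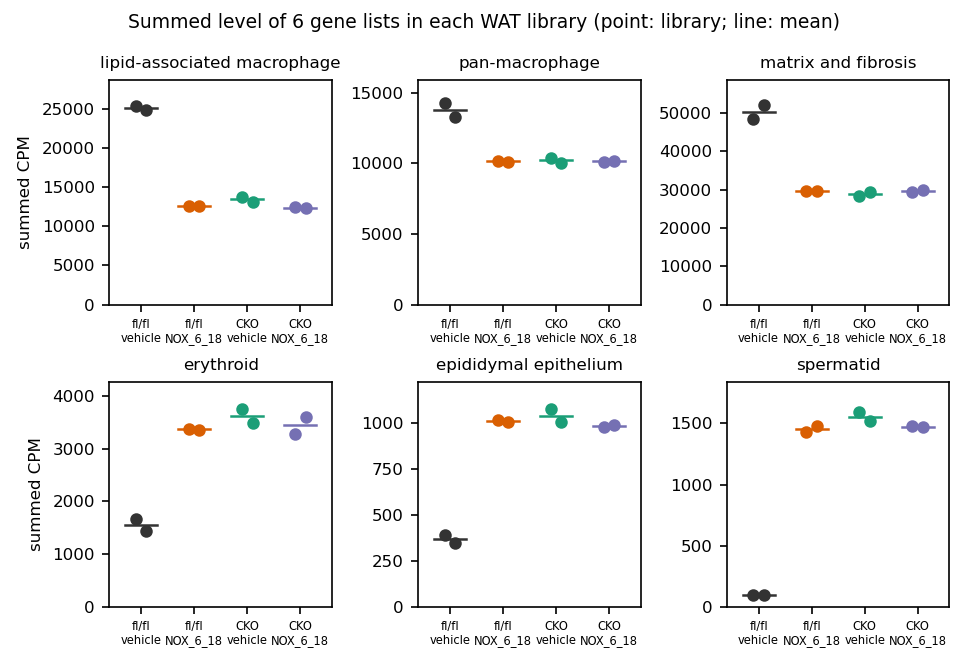
Summed CPM of 6 gene lists (vertical axes, from 0) in each WAT library (points) by group (horizontal axes), with a line at the group mean. The 2 control libraries are high for lipid-associated macrophage, pan-macrophage and matrix genes and low for erythroid, epididymal and spermatid genes, and the other 6 libraries lie close together in every panel.

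Promoter windows of 3 meiotic genes are shown because the shorter motif CACGTG recurs in this list. It was found in the 250 bases before the start of 8 of 16 spermatocyte genes with a window (50%), 7 of 23 lysosomal genes (30.4%), 2 of 16 lipid-associated genes (12.5%), 0 of 18 spermatid genes, 0 of 21 matrix genes and 1854 of all 27025 genes (6.86%). The list was small and its members were chosen with these results known, and no test was made. In Mael and Stag3 the motif is followed by A, which makes TCACGTG on the other strand. Only the shorter motif is capitalised below. The windows lie at chr1:166238912-166238994 (Mael, minus strand), chr13:112652311-112652389 (Ddx4, minus strand) and chr5:138280289-138280394 (Stag3, plus strand) of GRCm38.p6, 5′ to 3′ on the gene's strand with the motif in capitals.
Mael: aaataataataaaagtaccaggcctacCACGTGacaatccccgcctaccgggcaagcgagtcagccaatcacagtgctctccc
Ddx4: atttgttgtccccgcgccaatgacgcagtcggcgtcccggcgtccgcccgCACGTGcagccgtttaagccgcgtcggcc
Stag3: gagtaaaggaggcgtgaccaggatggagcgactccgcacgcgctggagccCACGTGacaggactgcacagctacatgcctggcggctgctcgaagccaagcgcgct
Mael, which protects germ cells against transposons, went from 1.77 and 1.69 CPM to 110 and 115 CPM (6.02 ± 0.10), and Stag3, a cohesin subunit of meiosis, from 2.31 and 2.34 CPM to 56.9 and 52.0 CPM (4.55 ± 0.13).

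Blood and liver markers also rose. Neutrophil genes were higher in 8 of 12 and lower in 1 (median 1.71), with the iron-binding proteins Lcn2 from 31.6 and 26.5 CPM to 111 and 111 CPM (1.94 ± 0.10) and Ltf from 2.94 and 3.19 CPM to 14.2 and 16.5 CPM (2.32 ± 0.13), and Retnlg at 1.69 ± 0.24. Lcn2 and Ltf are also secreted by reproductive tract epithelium. Erythroid genes were higher in 5 of 10 and lower in 1 (median 1.19), with the globins Hba-a1 from 514 and 447 CPM to 1074 and 1156 CPM and Hbb-bs from 508 and 433 CPM to 895 and 1066 CPM. Their sum went from 1676 and 1435 CPM to 3287 and 3610 CPM. Hepatocyte genes were higher in 14 of 20 and lower in 2 (median 2.07, but 8 higher without replicate 1 of the combined group and 9 in the compared libraries alone), with Alb, albumin, from 5.5 and 4.94 CPM to 28.6 and 31.0 CPM (2.51 ± 0.13). Apoh had 0 counts in both controls and 2.91 and 4.23 CPM in the combined group, at least 113-fold higher. Trf, transferrin, fell from 843 and 901 CPM to 673 and 681 CPM (−0.37 ± 0.05), and since it made up most of this list's CPM, the sum of the list fell from 911 and 965 CPM to 773 and 786 CPM. Among cell cycle genes 6 of 20 were higher and 6 lower, where 24.8% of all genes were higher and 13.4% lower. Their median was −0.08, and turned to 0.09 and 0.11 with library totals only and after the GC and length correction, with Aurka (1.82 ± 0.14), Plk1 (0.99 ± 0.11) and Cdc20 (0.94 ± 0.10), all of mitosis and meiosis, among the higher.

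The 12 largest rises among genes that are not predicted genes all had 0 counts in both controls. They were Ldhal6b, Mdh1b, Boll, Klhdc7a, Cc2d2b, Thegl, Tmem30c, Slco6d1, Sel1l2, Ace3, Prss21 and Slc6a16, at least 237-fold to 521-fold higher against a floor of 3 counts over the control group. Several of them are known from the testis, such as the meiotic regulator Boll (14.4 and 13.5 CPM in the combined group, at least 442-fold) and the serine protease Prss21 (9.24 and 8.78 CPM, at least 285-fold). Mdh1b, related to malate dehydrogenase, stood at 13.9 and 14.9 CPM. Ldhal6b was uneven (20.5 and 12.3 CPM) and was not called by limma-voom (adjusted p = 0.371). Klhdc7a (12.1 and 13.7 CPM) was lost with limma-voom (adjusted p = 0.155) and without any 1 of the 4 libraries (adjusted p from 0.0573 to 0.0651). In all 2417 fitted genes had 0 counts in both controls, 1628 of them called higher, and 34 with a symbol reached a mean of 5 CPM in the combined group. Their median level there was 0.325 CPM.

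The 12 largest falls were taken, like the rises, from genes with a symbol that are not predicted genes. The predicted gene Gm28048, described with the comparisons of single interventions, fell further (−11.52 ± 0.24). Epo, erythropoietin, went from 9.83 and 11.4 CPM to 0.235 and 0.188 CPM (−5.63 ± 0.77, adjusted p = 0.000657), and its exons overlap those of Gnb2. Gja5, a gap junction protein of arterial endothelium, went from 57.8 and 39.4 CPM to 7.84 and 13.1 CPM (−2.22 ± 0.31), against 16.5 to 25.9 CPM in the groups with 1 intervention. Hnrnpa3, an RNA-binding protein, went from 109 and 97.7 CPM to 30.4 and 20.1 CPM (−2.04 ± 0.58), but a single CKO vehicle library stood at 108 CPM, and the call was lost without control replicate 1 (adjusted p = 0.0668) or without either library of the combined group (adjusted p of 0.0743 and 0.145). Zfp740, a zinc finger gene, went from 84.5 and 71.9 CPM to 23.8 and 18.1 CPM, Fam107b from 106 and 98.5 CPM to 38.2 and 20.6 CPM, and Vsig8 from 34.3 and 32.0 CPM to 10.4 and 9.17 CPM. Serpinb9b, a protease inhibitor gene, fell by 1.71 ± 0.28 from a level of 7.04 and 6.53 CPM. Mfsd4a rested on 1 library, at 4.24 and 37.9 CPM in the controls and 3.48 and 2.76 CPM in the combined group (−2.76 ± 0.84). Without control replicate 2 its value was −0.44 (adjusted p = 0.437), and its call was also lost without either library of the combined group and with limma-voom. Rab22a, Mmp3 and Atp6v0d2 were also in this set.

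The combined group was then compared with each group that carried 1 intervention, which asks what the antagonist adds in CKO mice and what the genotype adds under the antagonist. Against fl/fl given NOX_6_18, edgeR called 9 genes of 25871 (0.0348%), 4 higher (0.0155%) and 5 lower (0.0193%), with 618 at an unadjusted p under 0.05 and 46 called by DESeq2. Without replicate 1 or 2 of fl/fl given NOX_6_18 it called 23 and 7 genes, and without replicate 1 or 2 of the combined group 17 and 5. Against CKO given vehicle it called 4 (0.0155%), 1 higher (0.00387%) and 3 lower (0.0116%), with 897 at an unadjusted p under 0.05 and 46 called by DESeq2. Without replicate 1 or 2 of CKO given vehicle this count was 6 and 8, and without replicate 1 or 2 of the combined group 13 and 3. Both unadjusted edgeR counts, 618 and 897, lie under the share of 0.05 of 25871 genes that p-values would give without any difference. Of the lists above, no member was called in either of these comparisons by edgeR. For Gpnmb, the difference of the combined group from fl/fl given NOX_6_18 was −0.05 ± 0.06 and that from CKO given vehicle was 0.06 ± 0.06, and for Col3a1 they were 0.02 ± 0.03 and 0.02 ± 0.03. These differences and their errors are small beside the changes against the controls, but a missed threshold does not show that the groups are alike.

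A set of 4 genes was called against both groups, and 3 are described here. Rab22a, a small GTPase of endosome recycling, was at 81.9 and 102 CPM in the controls, 94.5 and 92.2 CPM in fl/fl given NOX_6_18, 90.4 and 90.8 CPM in CKO given vehicle, and 23 and 22.2 CPM in the combined group. It was low in the combined group alone, with a log2 fold change of −2.05 ± 0.11 against fl/fl given NOX_6_18 (adjusted p = 0.000345) and −2.0 ± 0.11 against CKO given vehicle (adjusted p = 0.000809). Galnt16, which adds sugars to proteins in the Golgi, was at 61.0 and 60.5 CPM in the controls, 37.4 to 40.2 CPM in the 4 libraries with 1 intervention, and 20.8 and 17.7 CPM in the combined group. Its differences from those groups were −1.0 ± 0.10 and −1.01 ± 0.10 (adjusted p = 0.0277 and 0.0445). The first was lost without either library of fl/fl given NOX_6_18 or replicate 2 of the combined group (adjusted p from 0.0903 to 0.191). The second was lost without either library of CKO given vehicle or replicate 2 of the combined group (adjusted p from 0.135 to 0.189). Pttg1ip, a gene for a membrane protein that binds securin, ran the other way. It was at 258 and 241 CPM in the controls, 73.8 and 80.2 CPM in fl/fl given NOX_6_18, 73.8 and 74.1 CPM in CKO given vehicle and 206 and 203 CPM in the combined group, so the combined group was nearer to the controls (−0.29 ± 0.07, −0.12 and not called with library totals only) and above both others (1.41 ± 0.07 and 1.47 ± 0.07).

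Against fl/fl given NOX_6_18 only, 5 more genes were called. Ccnc, cyclin C of the Mediator kinase module, was at 24.5 and 20.8 CPM in the controls, 18.4 to 21 CPM in the groups with 1 intervention and 8.09 and 9.20 CPM in the combined group. Its difference from fl/fl given NOX_6_18 was −1.17 ± 0.13 (adjusted p = 0.048) and that from CKO given vehicle −1.26 ± 0.13 (adjusted p = 0.0512). The first call was lost without any 1 of its 4 libraries (adjusted p from 0.0784 to 0.283). Gpx3, the secreted glutathione peroxidase, was at 461 and 462 CPM in the combined group and at 545 and 550 CPM in CKO given vehicle, and lower, at 210 and 221 CPM, in fl/fl given NOX_6_18 (1.10 ± 0.09, adjusted p = 0.0134, lost without any 1 of 4 libraries with adjusted p from 0.0593 to 0.103). Prkab2, a subunit of the energy sensor AMPK, was at 48.4 and 47.9 CPM against 28.3 and 25.6 CPM (0.84 ± 0.09, adjusted p = 0.0345, lost without any 1 of 4 libraries with adjusted p from 0.0688 to 0.243). B3gnt2, a glycosyltransferase, and the overlapping predicted gene Gm28048 followed the genotype. B3gnt2 was at 46.8 and 47.0 CPM in the combined group and 46.8 and 37.7 CPM in CKO given vehicle, against 10.01 and 10.9 CPM in the controls and 6.86 and 6.28 CPM in fl/fl given NOX_6_18 (2.84 ± 0.13). Gm28048 was under 0.06 CPM in the 4 CKO libraries and between 43.0 and 56.8 CPM in the 4 fl/fl libraries. They share exons on chromosome 11 (22759738 to 22860961 and 22834744 to 22982090, minus strand), so reads of the pair may have been split differently between them, and their counts are uncertain.

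**Figure D5:**
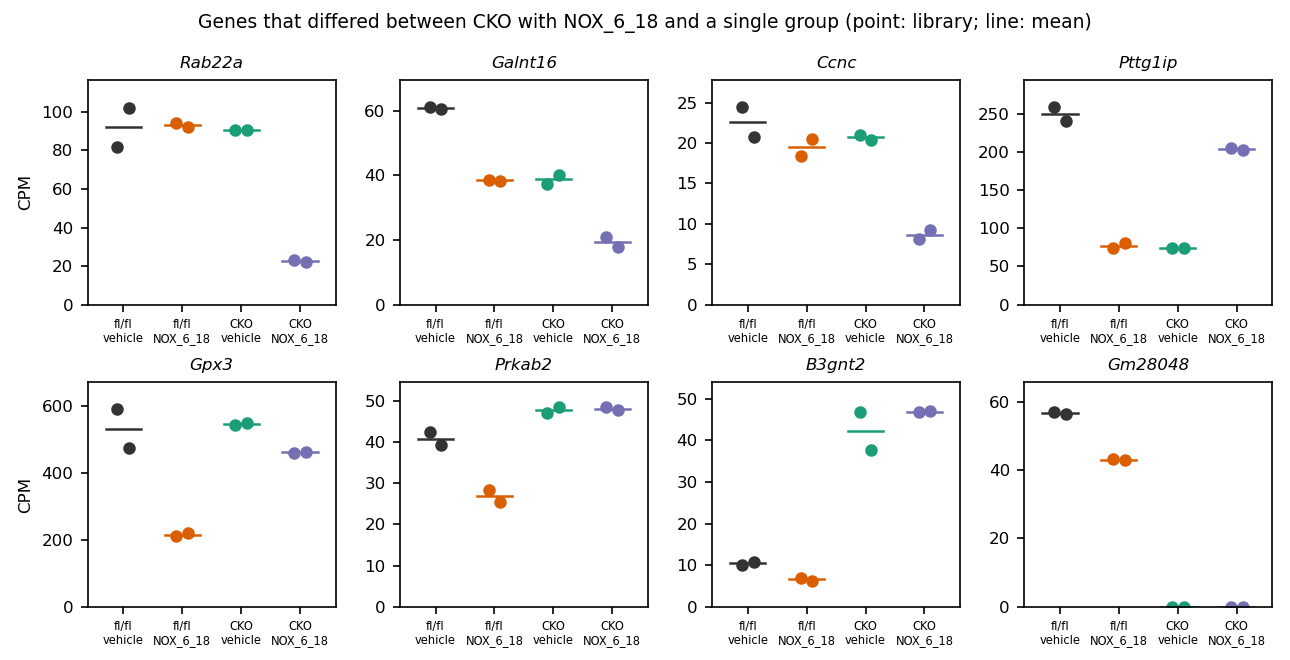
Levels in CPM (vertical axes, from 0) of 8 genes called between the combined group and a group with 1 intervention, by WAT group (horizontal axes), with a point per library and a line at the mean. Rab22a, Galnt16 and Ccnc are lowest in the combined group, Pttg1ip is low in both groups with 1 intervention, and B3gnt2 and Gm28048 differ between CKO and fl/fl libraries.

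The interaction asks whether the combined change equals the sum of the changes with 1 intervention, all taken from the same controls. It differed from that sum for 6547 genes (25.3%), above it for 1737 (6.71%) and below it for 4810 (18.6%). The split was 789 above and 5517 below with library totals only, 3107 and 4546 with centred libraries, and 917 to 1187 above and 3649 to 3853 below without any 1 of the 6 libraries outside the control group. Lipid-associated genes had a median of −1.10 in the combined group, −1.08 in fl/fl given NOX_6_18 and −1.06 in CKO given vehicle, and the combined change was above the sum in 21 of 22 (median interaction 1.00). Matrix genes had −0.76, −0.78 and −0.86, with 29 of 31 above the sum and 1 below (0.79), and lysosomal genes −0.53, −0.56 and −0.54, with 22 of 32 above (0.53). In the opposite direction spermatid genes had 4.89, 4.91 and 4.99, with 22 of 22 below the sum (−5.01), and epididymal genes 1.5, 1.51 and 1.54, with 12 of 13 below (−1.62). Genes of fat synthesis had 0.56, 0.56 and 0.51, with 9 of 22 below (−0.49). Over all genes the 3 medians were 0.12, 0.12 and 0.10. The 3 changes share the control libraries, so these medians are not independent of each other. Where the groups outside the controls lie near each other, the interaction is close to the combined change with its sign reversed. For these lists the counts above and below the sum therefore restate the separation of the controls and are no further result.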

How the data were processed

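RNA of WAT labelled as macrophage RNA was sequenced from a stranded kit library, per the labels' protocols. HISAT, featureCounts 1.5.0, DESeq 1.8.3 and GRCm38 are named in the submitters' processing notes. The authors deposited raw counts per gene for 55421 genes, of which 55154 (99.5%) had a symbol in the annotation used here. The 8 WAT libraries held 48348395 to 58396991 counts, and a count floor of 3 corresponds to 0.0499 to 0.0679 CPM in a library. The floor covers counting error only, and the standard errors also include the spread between libraries in the fit.

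Groups came from the sample titles. Counts were fitted with edgeR 4.0.16 (R 4.3.3, TMM scaling, its expression filter, quasi-likelihood test, 1 coefficient for each of 4 groups) and adjusted by Benjamini-Hochberg over 25871 genes, with a threshold of 0.05. A gene is called higher or lower on that test, ± is the standard error of the log2 fold change, and CPM is a count scaled by the TMM-adjusted library total. A fold against 0 counts is a lower bound against 3 counts over the group. No 2 libraries held identical values. The script was tested on simulated data for the comparison of the combined group with the controls (25871 genes, 100 changed by a log2 of 1 and 100 by 2). It recovered 77% and 99% of them and called 14 unchanged genes. Simulated rises and falls were equal in number, and all other genes were the same in each group. The real calls were many and mostly higher, a setting this simulation does not cover.

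Alternatives were DESeq2 1.42.0, limma-voom (limma 3.58.1), other scalings, filters, a GC and length correction, a replicate block, the compared libraries alone, and leaving out each library. Centring on the median of all genes was added after seeing the data.

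The comparison, its members and the 43 gene lists were chosen with earlier results of these data known. Named were the targeted gene, the 12 largest called rises and falls with a mean of at least 5 CPM and no overlap between groups (predicted genes, pseudogenes, clone names, immune receptor segments and sex-linked Xist and Y genes left out), up to 4 called members of each list, and the genes called in the other comparisons (up to 5 each way). Chosen after their values were seen were Gpr65, Ptgs2, Trem2, Lipa, Lpl, Cd36, Plin2, Csf1r, Lyve1, Timd4, Mertk, Itgam, Mitf, Tfeb, Tfe3, Lamp1, Gla, Tnf, Ccl2, Timp1, Mmp12, Adipoq, Plin1, Hbb-bs, Prm2, Stag3, Meiob, Star and Amh. Some genes that fall under the rule are not reported here.

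Exons of 31.9% of fitted genes overlap another gene, and how the authors' counting treated such reads is not given in the sources used here. Counts are therefore uncertain for Gpr65, Tbxas1, Ctsd, Ctsb, Csf1r, Itgam, Lamp1, Fdft1, Il1b, Cxcl10, Col3a1, Mmp12, Plin4, Elovl6, Apoh, Krt5, Gapdhs, Insl3, Cyp11a1, Epo, Klhdc7a, Tmem30c, Ldhal6b, Mfsd4a, Gja5, Hnrnpa3, Rab22a, Zfp740, Serpinb9b, Galnt16, Ccnc, Prkab2, B3gnt2, Gm28048, Rpl3, Rpl5, Cdc20 and Plk1.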

Additional observations from a re-analysis of the deposited data

Results flagged for a closer look

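By the edgeR interaction test, the change from vehicle to NOX_6_18 differed between CKO and fl/fl libraries for 6547 of 25871 genes. The test includes the control libraries, which stood apart from all others. A genotype-dependent effect of the antagonist cannot be told apart from that separation here. The 5 named genes with the lowest interaction had 0 counts in both control libraries, so their fitted values depend on the prior count and are not bounds. They were Ldhal6b (−15.27), Mdh1b (−12.85), Tmem30c (−12.75), Boll (−12.50) and Thegl (−12.26). Mdh1b, for example, ranged from 13.9 to 16.7 CPM across the 6 libraries outside the control group. Limma-voom did not call Ldhal6b (adjusted p = 0.326).

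On the other side the interaction was 14.80 ± 4.30 for Fam177a (adjusted p = 0.0442). This gene was at 33.7 and 35.9 CPM in the controls, 0 and 0 CPM in fl/fl given NOX_6_18, 0 and 38.3 CPM in CKO given vehicle and 38.2 and 33.3 CPM in the combined group, so libraries of a single group lay at both extremes. The call was lost with limma-voom (adjusted p = 0.155), with the replicate block (0.0548) and without any 1 of the control, fl/fl NOX_6_18 or combined libraries (adjusted p from 0.0643 to 0.121). Epo had an interaction of 6.73 ± 1.21, being at 9.83 and 11.4 CPM in the controls and at no more than 0.326 CPM in the other 6 libraries. Pttg1ip had 3.16 ± 0.10, with both groups of 1 intervention low and the combined group near the controls. Zfp260, a zinc finger gene, had 3.08 ± 0.77, at 43.4 and 33.3 CPM in the controls, 7.34 and 29.7 CPM in fl/fl given NOX_6_18, 5.41 and 4.96 CPM in CKO given vehicle and 26.4 and 16.1 CPM in the combined group. Its call was lost without either CKO vehicle library (adjusted p = 0.069 and 0.078) or replicate 1 of the combined group (0.0779). Zfp180, another zinc finger gene, had 3.03 ± 0.54, at 26.7 and 31.0 CPM, 6.53 and 4.21 CPM, 23.1 and 9.21 CPM, and 24.2 and 25.1 CPM in the same order. The libraries of a group were far apart for Zfp260 in fl/fl given NOX_6_18 and for Zfp180 in CKO given vehicle.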

How the results depend on the processing

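The combined group against the controls gave 9887 calls, 5345 when a change of at least 2-fold was also required, and 6835 to 9458 without 1 library. Gpr132 was −0.30 in all 8 libraries, −0.30 with an adjusted p of 0.0384 in the compared libraries alone, −0.26 to −0.33 without 1 library, −0.13 with library totals only, −0.21 after the GC and length correction and −0.44 with centred libraries. Against fl/fl given NOX_6_18 the 9 calls became 46 with DESeq2, 5 with the replicate block and 5 to 23 without 1 library. Against CKO given vehicle the 4 calls became 46 with DESeq2, 2 with the replicate block, 9 with the compared libraries alone and 3 to 13 without 1 library. The 6547 interaction calls became 5972 with the block and 4581 to 6790 without 1 library. Csf1r (0.15) and Il1b (−0.04) changed sign after the GC and length correction, and the cause was not tested. Of 183 genes examined against the controls 154 kept their direction and side of the threshold under every alternative, as did 4 of 9 and 2 of 4 genes in the comparisons with 1 intervention and 7 of 10 interaction genes. Replicate numbers were checked for pairing by the correlation of same-numbered deviations, which ran from −0.044 to 0.156 between groups. With 2 libraries a group this check cannot exclude that same-numbered libraries share more than a number. The labels do not say what the numbers mean, and the libraries were treated as unpaired. The block left 9369 calls against the controls. With the block, adjusted p rose to 0.0982 and 0.142 for Galnt16 against fl/fl given NOX_6_18 and CKO given vehicle, and against the former to 0.189 for Ccnc and 0.0982 for Prkab2, so these calls were lost, as was that of Mfsd4a against the controls (0.0695). With 2 libraries a group, 1 library without its partner was assumed to vary like the other groups, and low genes are limited by counting.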
